A study of Mus musculus with 6 samples.

Results

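Solute carriers are membrane proteins that move amino acids, sugars, ions, metals, vitamins and metabolites across the plasma membrane and the membranes of organelles. Their transcripts were examined in the mouse melanoma line B16.F10 after 24 h with 3.5 µM simvastatin, a statin that blocks mevalonate synthesis, or with no treatment. Genes were chosen by symbol: every gene whose name in the authors' deposited table begins with Slc, a family number, a letter and a member number. The genes Slc25a1, Slc27a4, Slc7a11, Slc45a2 and Slc24a5 were left out. This gave 121 genes of 8513 in the table, and 228 transcripts of 15905. Of the 121, 117 are solute carriers by symbol, from 37 numbered families, and 4 carry a further suffix (Slc4a1ap, Slc7a6os, Slc9a3r1 and Slc9a3r2) and are named after a transporter without being one. Both groups are wild-type B16.F10 cultures, 3 samples per group, with the same batch date for all 6 in the labels, and the labels differ in the drug only. The table gives 1 value per group and no value per sample, so no SD could be computed, and the depth behind a value is unknown.

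Families are numbered by sequence likeness, so that a number often stands for a substrate: families 1, 3, 6, 7, 15, 36, 38 and 43 carry amino acids or peptides, family 2 sugars, families 4, 9, 12 and 20 ions, and families 30 and 39 zinc. Family 25 holds mainly carriers of the mitochondrial inner membrane. Transport itself is driven by gradients of sodium, protons or chloride, by exchange of 1 substrate for another, or by the substrate's own gradient. In melanoma cells, carriers of glutamine, leucine, glucose and lactate are known for feeding growth, and carriers of melanosomes and lysosomes set ion and amino acid levels in these organelles.

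The melanocyte identity of the cells was checked first. All 14 melanocyte markers fixed for this check were in the table, with control totals between 14.43 for Oca2 and 2307 for Dct, in the authors' unit. Of 26 markers of fibroblasts, leukocytes, epithelia and endothelium, the only entry was Cd68, with values of 0.93 and 0.37. The 14 melanocyte markers themselves had a median log2 ratio of 0.42 with simvastatin. What part this difference in melanocyte transcripts has in the values below was not tested. In bulk cultures such as these, fewer cells of a kind and less RNA per cell cannot be told apart.

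Few solute carrier transcripts passed the authors' test, and most of those that did were higher with simvastatin. At an adjusted p under 0.05 in the authors' deposited table, 5 of the 228 transcripts rose and 1 fell, which is 2.19% and 0.439%, where 1.11% and 0.987% of all transcripts did. In either direction 6 transcripts passed (2.63%), where 2.09% of all did. The genes that rose were Slc39a6, Slc41a2, Slc4a8, Slc25a30 and Slc37a3, and the gene that fell was Slc35f1. The authors' own call reaches an adjusted p of 0.2, with a fold of at least 1.5 in all but 1 of its 1511 transcripts. It marked 15 transcripts as higher and 7 as lower (background 5.13% and 4.37%, against 6.58% and 3.07% here). At an unadjusted p under 0.05, 33 transcripts were higher and 13 lower in the authors' deposited table, or 14.5% and 5.70%, beside 9.42% and 10.2% of all transcripts. Between an adjusted p of 0.05 and 0.06 stood 6 further transcripts, those of Slc25a24, Slc26a2 and Slc31a2 on the higher side, and those of Slc44a1, Slc35g1 and a second transcript of Slc37a3 on the lower side.

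Gene totals, the sum of a gene's transcripts in each group, leaned the same way. Of 121 totals 87 were above control (71.9%), with a median log2 ratio of 0.24, while over all genes 51.7% were above and the median was 0.02. Summed over the whole table, values came to 344210 for simvastatin and 394749 for control. Rescaling both groups to the same sum adds 0.20 to every log2 ratio, which places 86.8% of solute carrier totals and 66.1% of all totals above control. The difference between the medians of solute carriers and of all genes is the same on either scale. It was present among genes with a mean total of at least 10 (44 of 61 above control, median 0.18, against 0.01 for all such genes) and among those under 10 (43 of 60, median 0.40, against 0.06).

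**Figure D1:**
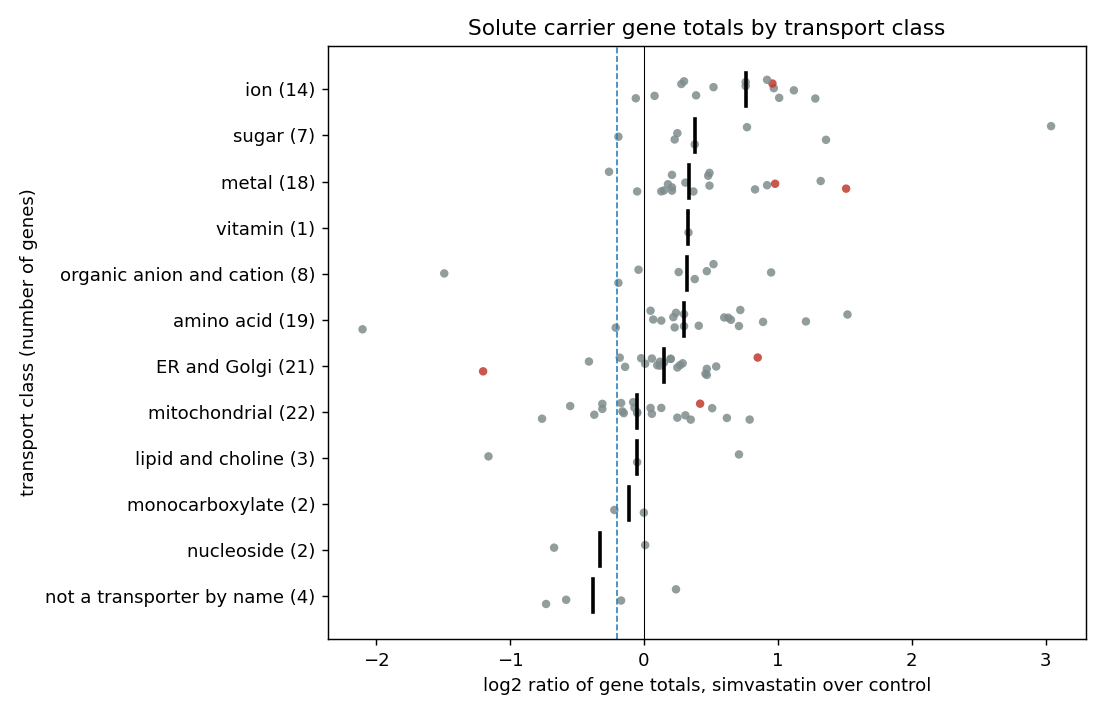
Log2 ratio of gene totals, simvastatin over control (horizontal axis), for each of 121 genes grouped by transport class (vertical axis, number of genes in parentheses). Points are genes, red where a transcript passed an adjusted p of 0.05, black bars are class medians, and the dashed line at -0.20 is where equality lies after rescaling to equal sums. Ion carriers have the highest median, 0.76, and the mitochondrial median is -0.05.

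Metal carriers included the member with the smallest adjusted p. Of 31 transcripts of 18 metal carrier genes, 2 rose and none fell in the authors' deposited table, where 1.11% and 0.987% of all transcripts did. Of the 18 totals, 16 were above control (17 after rescaling, median log2 ratio 0.34). Slc39a6, a zinc importer of the plasma membrane, had a value of 46.5 with simvastatin and 23.6 in control and rose 1.97-fold, with an adjusted p of 0.014 in the authors' deposited table. Slc41a2, a magnesium transporter (GRCm38 chromosome 10, 83230848 to 83337882, minus strand), stood at 5.75 against 2.02 and rose 2.85-fold, with an adjusted p of 0.042 in the authors' deposited table. These genes have 1 transcript each, so the gene total is the same comparison. Its relative Slc41a1 had values of 6.86 and 5.32 (adjusted p = 0.356 in the authors' deposited table).

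The other zinc carriers did not pass. Slc39a9, a zinc importer of the Golgi and plasma membrane, had values of 18.9 and 7.54, a larger fold than that of Slc39a6, yet an adjusted p of 0.488 in the authors' deposited table. Slc39a1, another plasma membrane importer, stood at 76.0 against 68.6 (adjusted p = 0.308 in the authors' deposited table). The remaining zinc importers Slc39a3, Slc39a7, Slc39a11 and Slc39a13 had totals above control and Slc39a10 a total below it, 7.94 against 9.50. Zinc efflux genes of family 30 had total ratios between -0.05 (Slc30a9) and 0.49 (Slc30a7) on the log2 scale, and the first of these is above 0 after rescaling. Slc31a2, a copper carrier of endosomes and lysosomes, stood at 6.59 against 3.70 (adjusted p = 0.056 in the authors' deposited table), beside 37.0 and 31.9 for the copper importer Slc31a1 (adjusted p = 0.536). Slc11a2, which carries ferrous iron, and Slc48a1, a heme carrier of lysosomes, had totals of 27.5 against 19.6 and 66.6 against 57.7.

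Ion carriers were above control in nearly all members. The class held 14 genes with 26 transcripts. Of these, 1 rose and none fell at an adjusted p under 0.05 in the authors' deposited table. Of all transcripts, 1.11% and 0.987% did, so that few of 26 would be counted either way at these shares. The median log2 ratio of totals was 0.76, and the 1 total below control, of the phosphate carrier gene Slc20a1 (9.38 against 9.76), is above it after rescaling. Slc4a8, a sodium-driven exchanger of chloride for bicarbonate that takes part in pH control (chromosome 15, 100761747 to 100823968, plus strand), had a value of 6.38 with simvastatin and 3.28 in control and rose 1.95-fold, with an adjusted p of 0.038 in the authors' deposited table. Other bicarbonate carriers had totals of 35.8 against 29 (Slc4a2, an anion exchanger) and 5.19 against 3.07 (Slc4a7, a sodium-coupled importer). Their smallest adjusted p in the authors' deposited table was 0.281 and 0.680.

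Slc26a2, a sulfate carrier, stood just outside the threshold at 7.29 against 4.30 (1.69-fold, adjusted p = 0.053 in the authors' deposited table). Both transcripts of Slc24a4, a potassium-dependent exchanger of sodium for calcium, were above control, at 3.96 against 1.75 and 4.45 against 2.11 (adjusted p = 0.185 and 0.241 in the authors' deposited table). The potassium-chloride cotransporters Slc12a4 and Slc12a7, which export salt and lower cell volume, had totals of 12.2 against 9.35 and 27.2 against 22.4. The endosomal sodium-proton exchanger Slc9a9 had a log2 total ratio of 1.01. Apart from Slc26a2, the carriers in this paragraph had an adjusted p of 0.130 or more in the authors' deposited table. The control totals of 9 of the 14 ion carrier genes lie under 6, so that the ratios rest on low values.

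Amino acid carriers had 17 of 19 totals above control, with a median log2 ratio of 0.30, and none of their 44 transcripts passed at an adjusted p under 0.05 in the authors' deposited table. At an unadjusted p under 0.05, 7 were higher and 0 lower, where 9.42% and 10.2% of all transcripts were. The gene of this class nearest the threshold was Slc1a4, a carrier of alanine, serine and cysteine, with values of 18.3 and 11.8 (1.55-fold, adjusted p = 0.077 in the authors' deposited table). Slc38a2, the glutamine carrier that cells induce on amino acid shortage, had values of 132 and 80.5 (1.64-fold, adjusted p = 0.096 in the authors' deposited table). The main transcript of Slc38a1, a related glutamine carrier, stood at 90.1 against 60.1, while its other transcripts stood at 7.91 against 11.6 and 4.51 against 5.69 (adjusted p = 0.182, 0.457 and 0.962 in the authors' deposited table). The authors' own call therefore covers Slc1a4, Slc38a1, Slc38a2 and Slc6a17 in this class, all on the higher side.

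The leucine and glutamine carriers best known in tumour cells differed less between groups. Slc7a5, the light chain of the leucine exchanger, had values of 67.3 and 64.0 (adjusted p = 0.939 in the authors' deposited table). Slc3a2, its heavy chain, stood at 122 against 103 for the main transcript (1.19-fold, adjusted p = 0.130 in the authors' deposited table). Slc1a5, an importer of glutamine, had a total of 25.1 against 20.4. The lysosomal carriers Slc36a1, Slc38a7 and Slc15a4 had totals of 7.74 against 3.34, 18.02 against 11.91 and 29.1 against 17.7, with a smallest adjusted p of 0.358, 0.337 and 0.219 in the authors' deposited table. The totals below control were those of the taurine carrier gene Slc6a6 (86.5 against 100) and of Slc43a2, a leucine carrier with values of only 0.37 and 1.59. Both remain below control after rescaling, Slc6a6 marginally. Slc6a17, a vesicular carrier of neutral amino acids, had 7 transcripts, the most of any member together with Slc35c2, and 1 of them, at 3.90 against 0.50, had an adjusted p of 0.095 in the authors' deposited table. Its gene total was 25.8 against 21.8.

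No transcript of the sugar carriers (10 transcripts, 7 genes) or of the monocarboxylate carriers (3 transcripts, 2 genes) passed at an adjusted p under 0.05 in the authors' deposited table. At an unadjusted p under 0.05, 3 sugar carrier transcripts were higher and 0 lower, and no monocarboxylate transcript was either. Of all transcripts, 9.42% were higher and 10.2% lower at this threshold. Slc2a1, the widely expressed glucose importer, had a total of 29.99 with simvastatin and 34.25 in control, which rescaling brings to about equality (log2 ratio of -0.19 before a shift of 0.20). Within this gene the main Ensembl transcript stood at 13.5 against 19.4 and an assembled transcript at 14.3 against 9.23 (adjusted p = 0.852 and 0.669 in the authors' deposited table). Slc2a6, a lysosomal member of the glucose carrier family, had values of 5.77 and 2.25 (2.57-fold, adjusted p = 0.117 in the authors' deposited table). Slc5a3, which imports inositol, was at 10.7 against 8.19 (1.30-fold, adjusted p = 0.065 in the authors' deposited table). Slc2a3, a high-affinity glucose importer, and Slc45a3 had log2 total ratios of 0.23 and 0.77. Slc50a1, with only a retained-intron transcript listed, had the low values 1.97 and 0.24. The lactate carriers Slc16a1 and Slc16a3 had totals of 26.7 against 31.1 and 58.4 against 58.5. Rescaled, Slc16a3 lies above control and Slc16a1 still marginally below it.

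Mitochondrial carriers stood apart from the other members in the direction of their totals, but lay nearer to all genes than those members did. Of 22 Slc25 genes 10 had totals above control and the median log2 ratio was -0.05, whereas 77 of the 99 other genes were above, with a median of 0.27. After rescaling 17 of the 22 were above and the median was 0.15, so the sign of this family's median depends on the scale while its distance from the other members does not. The distance was present at higher levels (5 of 13 genes with a mean total of at least 10, median -0.05, against 39 of 48 and 0.22) and at lower ones (5 of 9, median 0.13, against 38 of 51 and 0.47). The direction was not particular to this family. Choline, monocarboxylate and nucleoside carriers and the genes named after a transporter had medians of -0.05, -0.11, -0.33 and -0.38. Those small classes had 1 of 3, 0 of 2, 1 of 2 and 1 of 4 totals above control. Over all genes, 51.7% of totals were above control and the median was 0.02, against 45.5% and -0.05 for the Slc25 genes. After rescaling, all genes had 66.1% and 0.22, and the Slc25 genes 77.3% and 0.15. The median of 0.27 of the other members was farther from that of all genes, so the lean lay mainly with those members. All these figures describe the lists and are no test of the difference.

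**Figure D2:**
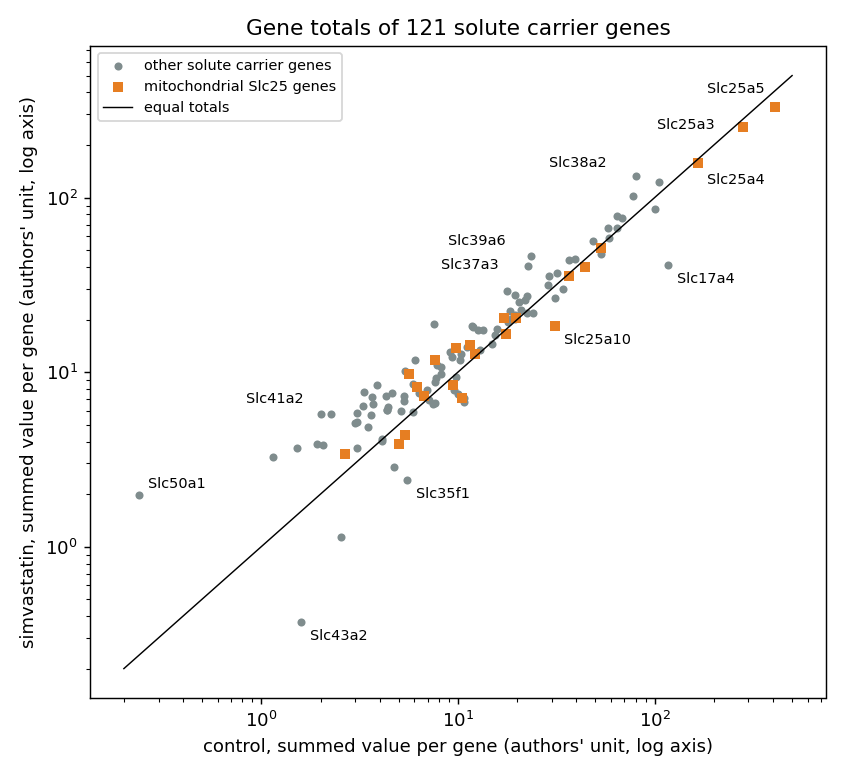
Summed value per gene with simvastatin (vertical axis, log scale) against control (horizontal axis, log scale), in the authors' unit, for 121 genes; squares are the 22 Slc25 genes and circles the others. The line marks equal totals: Slc25a5, Slc25a3 and Slc25a4 lie just below it, and Slc17a4 farther below.

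The ADP/ATP carriers, which exchange nucleotides between matrix and cytosol, included Slc25a5. It had a value of 330 with simvastatin and 410 in control (1.24-fold lower, adjusted p = 0.095 in the authors' deposited table). Its relative Slc25a4 had a main transcript at 107 against 149 and a retained-intron transcript at 51.7 against 18.4 (adjusted p = 0.655 and 0.868 in the authors' deposited table), for a total of 159 against 167. Slc25a3, the phosphate carrier, had a total of 254 against 283. Rescaled, Slc25a3 and Slc25a4 lie above control and Slc25a5 below. How reads shared with related copies in the genome were counted was not analysed here.

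A few mitochondrial carriers differed more between groups. Slc25a30, a carrier close in sequence to the uncoupling proteins (chromosome 14, 75760117 to 75787037, minus strand), had values of 8.24 and 6.18 and rose 1.33-fold, with an adjusted p of 0.033 in the authors' deposited table. It carries no call of the authors. Slc25a24, which exchanges ATP-magnesium for phosphate, stood at 11.8 against 7.65 (1.54-fold, adjusted p = 0.052 in the authors' deposited table). Slc25a10, the dicarboxylate carrier, stood at 18.4 against 31.1 (1.69-fold lower, adjusted p = 0.093 in the authors' deposited table) and is the only Slc25 gene the authors called lower. The pyrimidine nucleotide carriers pointed opposite ways: Slc25a36 was at 14.21 against 11.48, and Slc25a33 had a total of 7.13 against 10.5 (smallest adjusted p = 0.093 and 0.307 in the authors' deposited table). The aspartate-glutamate carriers of the malate shuttle, Slc25a12 and Slc25a13, had totals of 13.8 against 9.72 and 40 against 44.45, and the oxoglutarate carrier Slc25a11 of the same shuttle 35.3 against 36.5. Slc25a39, which imports glutathione, had a total of 51.7 against 53.5. Slc25a14 and Slc25a25, the latter a further ATP-magnesium carrier, had low totals of 4.34 against 5.37 and 3.89 against 5.01.

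Carriers of the endoplasmic reticulum, Golgi and lysosome with families 33, 35 and 37 held the transcript with the largest fold among those that passed and the only one that fell. Of 45 transcripts of 21 genes, 1 rose and 1 fell in the authors' deposited table at an adjusted p under 0.05. Of all transcripts, 1.11% and 0.987% did. At an unadjusted p under 0.05, 2 of the 45 were higher and 5 lower, where 9.42% and 10.2% of all transcripts were. The authors' own call marked 1 of the 45 as higher and 3 as lower, beside 5.13% and 4.37% of all. Of the 21 totals 16 were above control, and the median log2 ratio of totals was 0.15. Slc35f1, of the nucleotide sugar carrier family (chromosome 10, 52690533 to 53111622, plus strand), had a value of 2.40 with simvastatin and 5.5 in control and fell 2.30-fold, with an adjusted p of 0.042 in the authors' deposited table. Its relative Slc35g1 was at 7.53 against 10.0 (1.33-fold lower, adjusted p = 0.056 in the authors' deposited table). The carriers that supply the Golgi with building blocks of glycans differed less in their totals: Slc35a1 (CMP-sialic acid) had a total of 17.7 against 15.9, Slc35a2 (UDP-galactose) 7.57 against 6.37 and Slc35c1 (GDP-fucose) 7.94 against 6.93. Single transcripts differed more, with 6.35 against 2.95 and 1.59 against 3.98 in Slc35c1 and 2.59 against 0.33 in Slc35a2 (adjusted p = 0.473, 0.591 and 0.389 in the authors' deposited table). Slc35b2, which carries the sulfate donor PAPS, had a total of 47.4 against 53.6 over 5 transcripts, and its most abundant one stood at 19 against 23.65 (adjusted p = 0.166 in the authors' deposited table). Its total is marginally above control after rescaling.

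Slc37a3, a carrier that with Atraid releases bisphosphonates from lysosomes (chromosome 6, 39334773 to 39377675, minus strand), had transcripts with values in opposite directions. A transcript assembled by the authors from reads had a value of 36.1 with simvastatin and 7.28 in control and rose 4.96-fold, with an adjusted p of 0.038 in the authors' deposited table. The annotated protein-coding transcript stood at 4.60 against 12.8 (2.79-fold lower, adjusted p = 0.058 in the authors' deposited table), and a nonsense-mediated decay transcript at 0.07 against 2.50 (adjusted p = 0.104). The assembled transcript made up 88.5% of the summed gene value with simvastatin and 32.2% in control, and the gene total was 40.8 against 22.6. Slc37a3 was the only member whose transcripts pointed opposite ways past the authors' call or an unadjusted p of 0.05. With Ensembl transcripts alone the gene does not count as higher, and 4 transcripts rise rather than 5. The structure of the assembled transcript is not given in the table, and how reads were divided between it and the annotated ones was not tested.

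**Figure D3:**
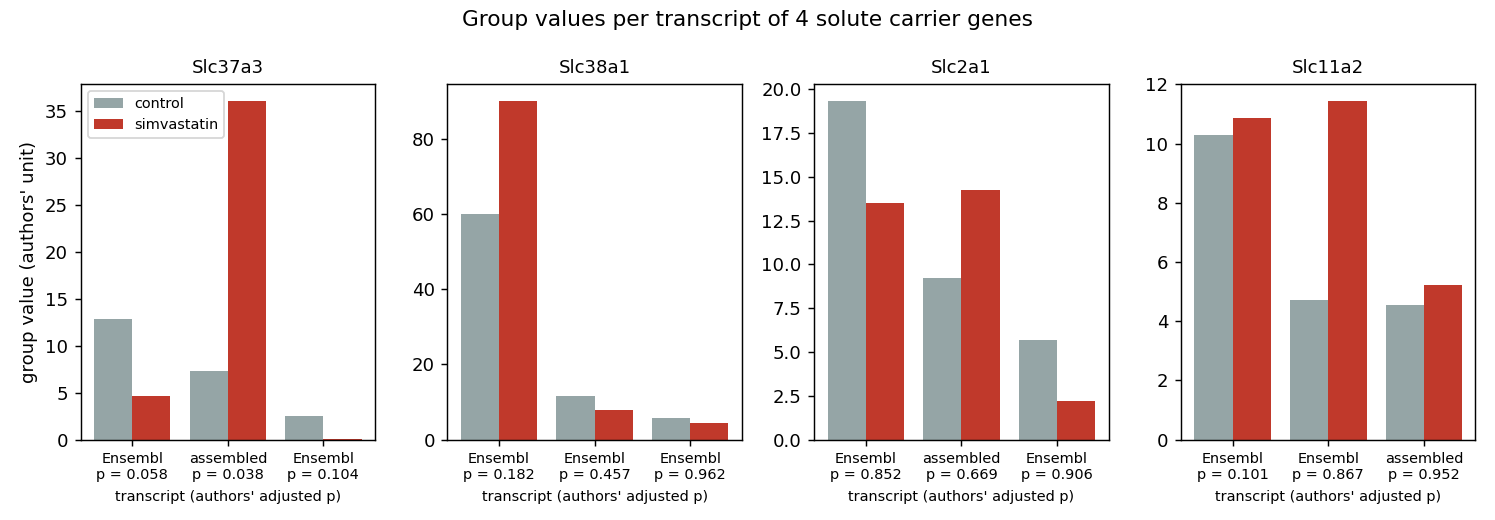
Group values in the authors' unit (vertical axis, starting at 0, a separate scale per gene) for each transcript of Slc37a3, Slc38a1, Slc2a1 and Slc11a2, control in grey and simvastatin in red, with the authors' adjusted p under each pair. The group values carry no error because no values per sample were used; in Slc37a3 the assembled transcript goes from 7.28 to 36.1 while the others are lower.

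Promoters were searched for the palindromic E-box TCACGTGA, the core of the elements that bind TFEB and its relatives, together with 6 other motifs. Sequences of 250 bases before to 50 after each start, from RefSeq on GRCm38.p6, were found for 98 of the 121 genes. The motif, with both strands alike, was in 4 of the 98 (4.08%), in 2.66% of all measured genes with a promoter and in 1.12% of all genes with one. The windows around it are printed 5′ to 3′ on the gene's strand, with the E-box in capitals, so that the 4 genes sharing the motif can be set beside their values. They are chr9:97111211-97111240, chr16:45158746-45158775, chr11:55204325-55204354 and chr6:39377703-39377732, in the order shown, and all but that of Slc36a1 are on the minus strand.
Slc25a36: cccctgggcgaTCACGTGAaagaggcgtgc
Slc35a5: cacctaaggccTCACGTGActcgactctcc
Slc36a1: gggagccagcaTCACGTGAcagggcccgga
Slc37a3: tgtccccgaggTCACGTGAgcgtccggaag

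The first base of the motif lies 188, 91, 4 and 14 bases before the start in these genes. RefSeq gives 2 starts for Slc37a3: the window belongs to the one outside the GENCODE span given above, and the stretch around the other start does not hold the motif. Their totals differed in size: the log2 ratio was 0.31 for Slc25a36, -0.02 for Slc35a5, 1.21 for Slc36a1 and 0.85 for Slc37a3. The shorter core CACGTG, which is part of the longer motif, was in 18.4% of the 98 promoters and in 12.9% of those of measured genes. The sterol regulatory element TCACNCCAC, through which SREBP factors act, was searched on both strands and found in 2 of the 98 (2.04%, against 1.46% of measured genes), those of Slc23a2 and Slc9a3r2. The response element TGATGNAA of the amino acid shortage response was in 4 (4.08%, against 2.61%), those of Slc1a4, Slc7a7, Slc9a9 and Slc50a1. The E2F sites TTTCCCGC and TTTGGCGC were in 2.04% and 1.02% (against 2.58% and 1.28% of measured genes) and the AP-1 site TGAGTCA in 4.08% (against 4.20%), both strands searched. Each match is a description of letters, not of a bound site.

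The remaining small classes had no transcript past an adjusted p of 0.05 in the authors' deposited table. At an unadjusted p under 0.05, 1 of 5 choline carrier transcripts was higher and 2 were lower. Of 14 organic ion carrier transcripts, 2 were higher and 1 lower. None of the 5 nucleoside carrier transcripts, nor the 1 vitamin carrier transcript, reached 0.05. Among all transcripts, 9.42% were higher and 10.2% lower at that threshold. Slc44a1, a choline importer, had a main transcript at 10.2 against 12.1 (1.18-fold lower, adjusted p = 0.052 in the authors' deposited table), a second at 3.87 against 1.38 and a total of 14.4 against 14.9, above control after rescaling. Its relatives Slc44a2 and Slc44a3 carried calls of the authors in opposite directions, at 7.55 against 4.60 and 1.14 against 2.55 (adjusted p = 0.098 and 0.1 in the authors' deposited table). The only Slc44a3 transcript listed is a processed transcript, not a protein-coding one, and its values are low. Slc29a1, the main nucleoside importer, had a total of 6.76 against 10.8, and Slc29a3, its lysosomal relative, 5.94 against 5.89. Slc23a2, which imports ascorbate, was at 13.96 against 11.12, and Slc18a1, a vesicular monoamine carrier, at 17.5 against 13.5 (adjusted p = 0.275 and 0.173 in the authors' deposited table). An assembled transcript of Slc17a5, the lysosomal sialic acid exporter gene, stood at 5.29 against 2.75 (adjusted p = 0.142 in the authors' deposited table). Slc22a18, of the organic cation family, had a total of 11.7 against 6.04, and Slc22a27 values of 6.69 and 7.61, the latter marginally above control after rescaling.

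Slc17a4, an anion carrier of family 17, had the largest lower total among genes with a total of at least 5 in a group. An assembled transcript, the only one listed for this gene, had a value of 41.3 with simvastatin and 116 in control (2.82-fold lower, adjusted p = 0.117 in the authors' deposited table). The gene (chromosome 13, 23895890 to 23915009, minus strand) lies near the large histone cluster, and the 11 Hist1 genes measured within 200 kb of it, the nearest 131.5 kb away, all had lower totals, from 2.35-fold to 18.8-fold. The 18.8-fold belongs to Hist1h1a, at low totals of 0.2 against 3.77, and the next largest was 4.61-fold (Hist1h3c). Hist1h4b had a total of 230 against 586. The smallest adjusted p per histone gene in the authors' deposited table ran from 0.043 (Hist1h1a) to 0.784 (Hist1h3c), with 0.048 for Hist1h4b. The part of the histone neighbours in the value of Slc17a4 was not tested.

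Of the 4 genes named after a transporter, none passed. At an unadjusted p under 0.05, 1 of their 8 transcripts was higher and 1 lower, where 9.42% and 10.2% of all transcripts were. Slc9a3r1, a scaffold that anchors transporters to the cytoskeleton, had values of 43.6 and 36.8 (adjusted p = 0.234 in the authors' deposited table), and its relative Slc9a3r2 values of 2.86 and 4.74 (1.66-fold lower, adjusted p = 0.095). Slc7a6os and Slc4a1ap had totals of 7.15 against 10.7 and 6.60 against 7.43.

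Fold and p-value were only loosely linked among the transcripts. Of 58 transcripts with a fold of at least 2 in either direction in the authors' deposited table, 14 had an unadjusted p under 0.05 and 3 passed at an adjusted p under 0.05. A group value under 1 was present in 23 of the 58. For example, an assembled transcript of the phosphate carrier gene Slc20a2 stood at 6.31 against 0.59 (10.7-fold, adjusted p = 0.547 in the authors' deposited table), while the main transcript stood at 9.92 against 14.8 and the gene total at 16.2 against 15.4. Of 46 transcripts with an unadjusted p under 0.05, 18 had a fold under 1.5 and 7 under 1.2. In Slc11a2 the transcript with the smallest adjusted p had 1.06-fold, at 10.9 against 10.3, and another with 11.45 against 4.73 had 2.42-fold (adjusted p = 0.101 and 0.867 in the authors' deposited table). None of the 6 transcripts that passed had a group value under 1.

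**Figure D4:**
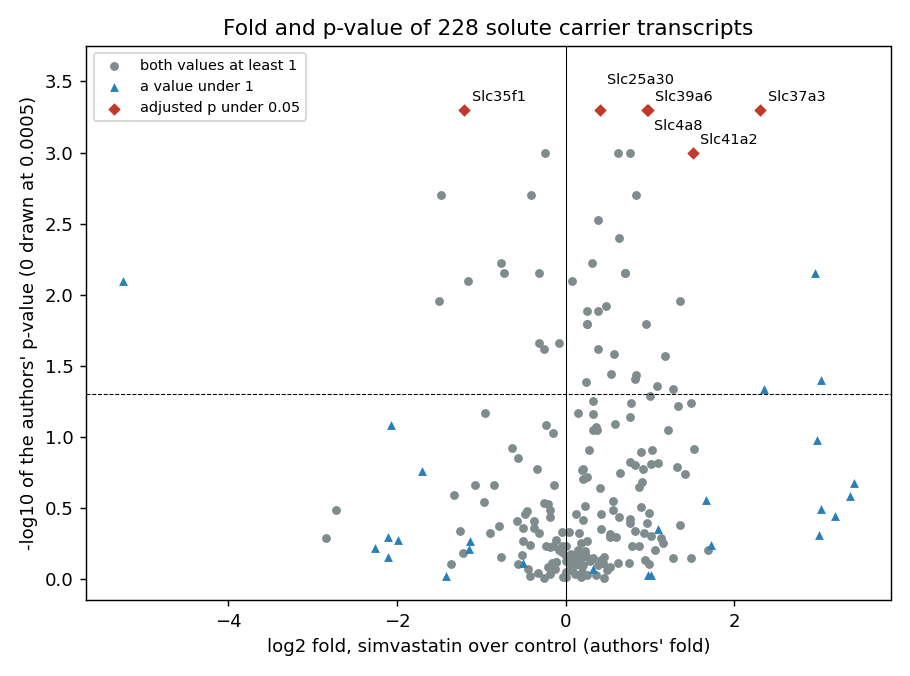
The authors' log2 fold, simvastatin over control (horizontal axis), and -log10 of their p-value (vertical axis, with a printed p of 0 drawn at 0.0005) for 228 transcripts. Diamonds passed an adjusted p of 0.05, triangles have a group value under 1, circles are the rest, and the dashed line is an unadjusted p of 0.05; the points of Slc4a8 and Slc39a6 overlap, and many of the widest folds are triangles below that line.

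Most of the transcripts were annotated and protein coding. GENCODE held all 176 Ensembl transcripts and called 145 protein coding, 16 retained introns, 9 targets of nonsense-mediated decay and 6 processed transcripts, and 52 were assembled by the authors. The protein-coding ones had a median log2 fold of 0.24, the retained-intron ones 0.27, the assembled ones 0.23, the processed ones 0.43 and those subject to nonsense-mediated decay 0. Of the 57 genes with at least 2 transcripts, 34 had folds in both directions.

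Solute carriers with other names and the partners of solute carriers were counted the same way. Of 51 solute carrier genes without an Slc number, such as Mfsd, Sfxn and Mpc genes, 28 were measured. Of these 28 totals, 21 were above control (median log2 ratio 0.31), and 24 after rescaling. Over all genes 51.7% were above control (median 0.02), and 66.1% after rescaling. At an unadjusted p under 0.05, 7 of the 55 transcripts of the 28 genes were higher and 4 lower, where 9.42% and 10.2% of all transcripts were. None of the 55 passed in either direction in the authors' deposited table, where 2.09% of all did. Closest were Sidt2, a lysosomal nucleic acid carrier, at 25.6 against 14.5, Mpdu1, needed for the use of dolichol-linked mannose, at 9.20 against 12.3, and an assembled transcript of Mpc1, a subunit of the mitochondrial pyruvate carrier, listed at 0 against 3.39 (adjusted p = 0.053, 0.067 and 0.056 in the authors' deposited table). The other Mpc1 transcript stood at 8.77 against 3.97 (adjusted p = 0.310 in the authors' deposited table), and the total of this gene was 8.77 against 7.36. Oca2, a melanosome anion carrier, stood at 12.6 against 5.00, and Ctns, the lysosomal cystine exporter, at 12.7 against 5.89 (adjusted p = 0.069 and 0.106 in the authors' deposited table). Of 27 partners, sodium pump subunits and regulators, 19 were measured, and 16 of 19 totals were above control (median log2 ratio 0.22). Beside 2.09% of all transcripts, 1 of their 47 transcripts passed in the authors' deposited table. It belongs to Oxsr1, a kinase that controls the cation-chloride cotransporters, which rose 1.26-fold from 13.4 to 16.8, with an adjusted p of 0.020 in the authors' deposited table. Emb, a chaperone of lactate carriers, stood at 14 against 17.37 with an adjusted p printed as 0.05 in the authors' deposited table, and was not counted.

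The authors set their fold changes beside an outside signature of the human melanoma line A375 (simvastatin at 10 µM), where 3 of the members appear. The authors' deposited table gives Slc39a6 a log2 fold change per gene of 0.95 in the mouse cells and a z-score of 0.0689 in A375, Slc4a8 0.79 and 0.367, and Slc25a30 0.36 and 0.900. The z-scores carry no error, lie between 0.0689 and 0.900, and give no measure of likeness between the lines. In the same order, the single transcripts of these 3 genes had log2 folds of 0.98, 0.96 and 0.41. Why these differ from the values per gene was not tested. Their adjusted p with more digits was 0.0143, 0.0381 and 0.0331 in the authors' deposited table.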

How the data were processed

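RNA of 6 B16.F10 cultures, 3 per group by their titles, had been sequenced as stranded libraries of total RNA, per the labels' protocols. The submitters' processing notes name HISAT2 2.0.5, StringTie and the build GRCm38 (mm10). For the authors' filters and test, the sources used here give no tool. The deposited table holds 1 expression signal per group and transcript, in a unit that is not stated, so whether levels are comparable between genes is unknown. Ratios of totals compare a gene with itself between groups. Between genes, totals were used to name genes, to split the list and to give marker levels. Sums over transcripts, shares within a gene and the rescaling take all values to be on the same scale, which is also unknown. The authors also deposited the signed fold ratio, p-values printed to 3 decimals and adjusted p-values. In their human comparison the authors deposited a log2 fold change and, per the file header, a score (the z-score of an outside A375 signature).

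Here, transcripts were counted at the authors' adjusted p-value under 0.05 over all transcripts, and group values were summed per gene (Python 3.11.15, pandas 2.3.3). Medians left out genes with totals under 1 in both groups, of which the members had 0. Fold changes with a group at 0 are not reported. The counting and summing were checked on a copy of the data with changes set in advance, which tests the arithmetic only. Coordinates and transcript types come from GENCODE mouse release 21 (GRCm38). Transport classes follow the family number. The mitochondrial class is therefore all of family 25, and the membrane of each member was not checked. Members, classes and lists were chosen with earlier results of these data known. Named were members past the threshold, per class the 4 of smallest adjusted p and the 2 of largest total, genes whose transcripts point opposite ways, the 10 largest total changes each way and a list of 33 genes, 25 of which were measured; other genes are named as examples, and some genes under this rule are not reported here. For the 2 other transporter lists, members past the threshold or the 3 of smallest adjusted p were named. The p-values rest on the spread between 3 samples per group, which the series text calls biological replicates.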

Additional observations from a re-analysis of the deposited data

How the results depend on the processing

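The 6 counts and medians were recomputed under other settings, giving 36 values. Of these, 22 stayed within 1.5 times the count, or within 0.1 on the log2 scale, and 14 moved. No median changed sign, and a count cannot. At an adjusted p under 0.1 there were 14 higher and 7 lower transcripts, in 14 and 7 genes. The share of all transcripts at this threshold was not computed, so these counts have no background beside them. At an unadjusted p under 0.05 there were 33 and 13 transcripts, in 31 and 12 genes, and by the authors' own call 15 and 7, in 15 and 6 genes. Rescaling to equal sums took the median log2 ratio of gene totals from 0.24 to 0.44 and the median log2 fold of transcripts from 0.24 to 0.44. As it only raises these medians, it could not change their sign. A minimum value, Ensembl transcripts only and, chosen after seeing the data, leaving out the 4 genes that are not transporters by name changed no count by over 1.5 times. For the minimum value and the 4 genes this was fixed beforehand. No transcript that passed had a group value under 1 or belonged to those genes. A pseudocount of 1, which bears on the medians only, gave 0.23 for totals and 0.20 for transcripts. No paired analysis was possible because the table gives 1 value per group, and for the same reason no replicate could be left out. The depth behind single values is unknown.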

Other observations

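The authors' deposited enrichment table lists transmembrane transport among the upregulated processes, with 41 genes, 2.02-fold enrichment and an adjusted p of 2.76e-08. Its gene column holds 37 different identifiers. Of these, 3 occur in the authors' deposited table of all transcripts, and none belongs to a solute carrier gene described above. The broader term transport has 38 different identifiers, of which 13 occur in that table and none belongs to one of these genes. As most identifiers of both terms do not occur in that table, the missing overlap cannot show whether solute carrier genes are in these terms.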
